A study of Ovis aries with 13 samples.

Results

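Glycolysis splits glucose into pyruvate in the cytosol, and several of its enzymes have different tissue forms. The 7 enzymes described here are hexokinase 1 (HK1), the muscle and liver forms of phosphofructokinase (PFKM and PFKL), aldolase A (ALDOA), glyceraldehyde-3-phosphate dehydrogenase (GAPDH), the muscle enolase (ENO3) and the A chain of lactate dehydrogenase (LDHA). Hexokinase traps glucose in the cell as glucose 6-phosphate, phosphofructokinase makes the committed step, and lactate dehydrogenase interconverts pyruvate and lactate at the end of the path. The fetal heart is known to live largely on glucose and lactate, and the heart takes up fatty acid oxidation in the time after birth.

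RNA of left ventricle from sheep was measured on Agilent 1-colour arrays, 1 array for each animal. The fetal group held 6 animals at gestational day 142 and the newborn group 7 at postnatal day 1, with no treatment or genotype named for either. Females made up 2 of the fetal and 4 of the newborn animals. In a piece of ventricle, fewer cells of a type and less RNA per cell cannot be told apart. In the labels, 9 of the 13 animals carry a number that returns, with a different letter, on another animal of their group. Its meaning is not given there.

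The members were taken by the gene name written in the array files. Probes carrying the names HK1, ALDOA, GAPDH and LDHA numbered 7. A name with a hyphen for PFKL and a gene number for ENO3 added 3 more, which made 10. PFKM was reached only through the description of 2 probes as the muscle form of bovine 6-phosphofructokinase, and no member was found through a RefSeq accession. In all, 7 of the 859 genes that could be named and 12 of the 15008 probes belong to the set. Another 3 probes, under other gene names, are described as ovine GAPDH mRNA and are shown beside them. All 12 were well above background on 13 of 13 arrays, and none was saturated. The annotation names no genome build, so no positions are given.

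The probes are 60 bases long, and their letters matter first for GAPDH, where the probes that carry the name are on the opposite strand to the mRNA. The labelled RNA of this kit is complementary to mRNA, so a probe with the sense of the mRNA is the one that binds it. The reverse complement of the brighter GAPDH-named probe overlapped a GAPDH mRNA probe by 39 bases, of which 36 were identical, and the longest shared run was 23 bases. As written, the longest run the same probes shared was 6 bases. In the lines below, 5′ to 3′ and taken from the array files, capitals mark the shared run.
GAPDH-named probe, as written: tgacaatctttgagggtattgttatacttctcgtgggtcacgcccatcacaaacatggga
GAPDH-named probe, reverse complement: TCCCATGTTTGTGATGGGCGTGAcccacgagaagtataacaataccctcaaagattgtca
GAPDH mRNA probe: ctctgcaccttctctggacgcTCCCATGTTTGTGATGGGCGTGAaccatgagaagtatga
GAPDH mRNA probe, other stretch: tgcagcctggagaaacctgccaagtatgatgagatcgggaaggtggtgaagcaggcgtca

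For the other enzymes the sequences show which probes are separate measurements. The LDHA probes come from different stretches and share no run longer than 5 bases. The ALDOA probes overlap end to end by 13 bases, in capitals below. The ENO3 probes share 59 bases in capitals, as do the PFKM probes with each other, so each of those pairs measures a single stretch. No probe of the set shared a run of 20 bases with any of the 14993 other probes on the array, on either strand.
LDHA, brighter probe: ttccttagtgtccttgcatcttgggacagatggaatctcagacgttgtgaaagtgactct
LDHA, dimmer probe: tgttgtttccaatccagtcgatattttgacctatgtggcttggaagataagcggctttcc
ALDOA, brighter probe: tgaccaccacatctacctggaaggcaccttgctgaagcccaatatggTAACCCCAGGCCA
ALDOA, dimmer probe: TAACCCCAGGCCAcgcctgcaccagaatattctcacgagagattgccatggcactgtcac
ENO3, brighter probe: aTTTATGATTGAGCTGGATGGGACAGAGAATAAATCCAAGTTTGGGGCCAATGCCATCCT
HK1: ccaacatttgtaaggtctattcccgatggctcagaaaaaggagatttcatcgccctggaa
PFKL: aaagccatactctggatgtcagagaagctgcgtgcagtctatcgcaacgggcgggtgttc

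Levels below are log2 of the signal over the 75th percentile of the array, so 0 is that percentile and a step of 1 is a doubling. A change is the newborn mean minus the fetal mean on that scale. It is given with its standard error (SE) and, from limma, a p adjusted by Benjamini-Hochberg over the 10255 probes tested. A change is called where that p is under 0.05. By its brightest probe, 1 of the 7 enzymes was called, HK1, which fell. Over all tested probes 23.1% were called, 11.1% lower and 12% higher in newborns, and over the 563 named genes 24.5%, 9.06% lower and 15.5% higher. The count among the enzymes lies near that background. The median change of the 7 enzymes was 0.025, against 0.030 over all probes and 0.096 over the 563 named genes by brightest probe. The enzyme median is the change of the GAPDH-named probe, which is on the opposite strand to the mRNA.

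**Figure D1:**
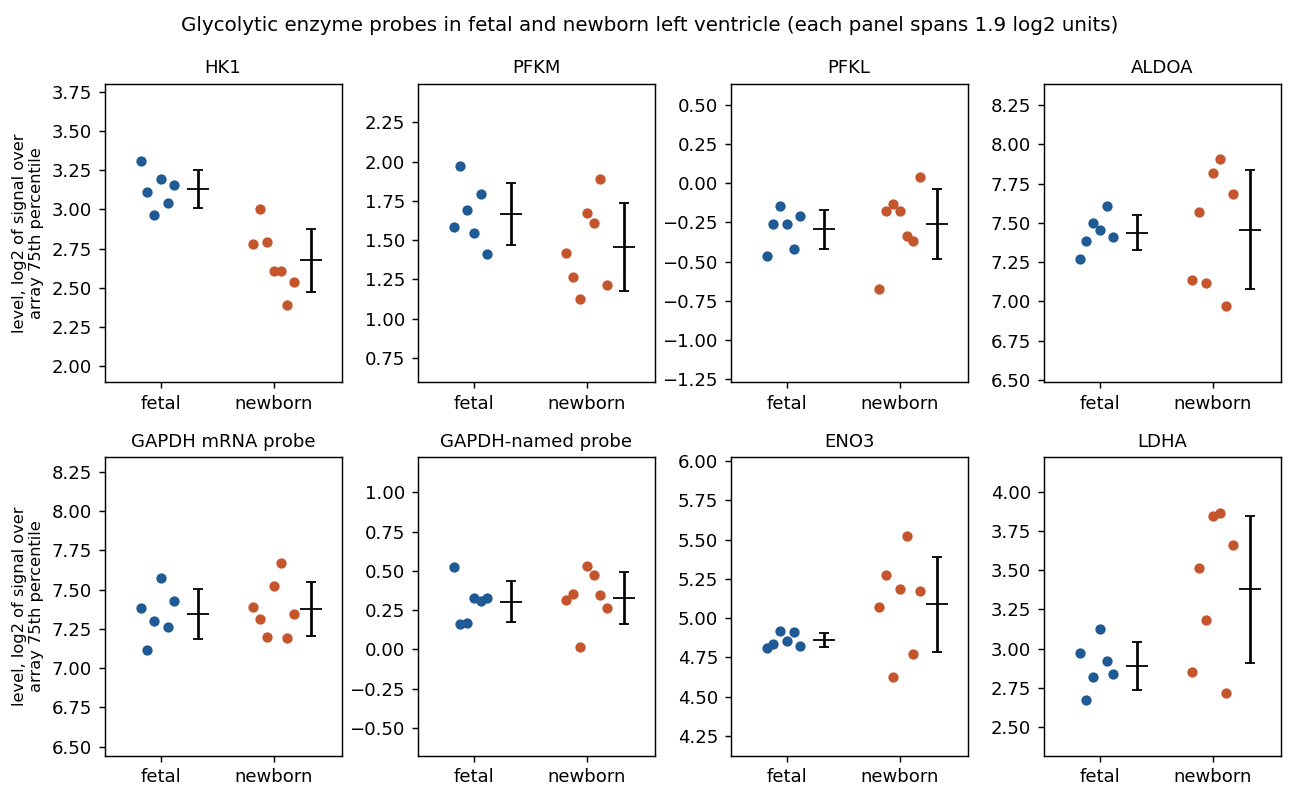
Level of the brightest probe of each enzyme, and of a GAPDH mRNA probe, on 6 fetal (blue) and 7 newborn (orange) arrays, as log2 of the signal over the array's 75th percentile. Each point is an array, the bar with whiskers is the mean ± SD, and every panel spans the same height. HK1 sits lower in newborns, and ALDOA, ENO3 and LDHA spread wider there.

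HK1, the hexokinase found in most tissues and bound to mitochondria, was lower in newborn ventricle. Its fetal levels ran from 2.97 to 3.31 with a median of 3.13. Newborn levels ran from 2.39 to 3.0 with a median of 2.61. Of the 7 newborns, 6 lay below every fetus. The exception was newborn 2 at 3.0, just above the lowest fetus, fetal 3 at 2.97. The mean fell from 3.13 ± 0.12 (SD, n = 6) to 2.68 ± 0.20 (SD, n = 7), a change of -0.45 (SE 0.105, 95% interval -0.68 to -0.23, adjusted p = 0.00814) or 1.37-fold. Within slide 1 the change was -0.29 (adjusted p = 0.262) and within slide 2 it was -0.56 (adjusted p = 0.152). Neither slide alone carried the call, and both changes were downward. The call was also lost when the background was corrected spot by spot with normexp, at -0.42 (adjusted p = 0.560).

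PFKM, the phosphofructokinase subunit that dominates in muscle, had lower means in newborns but did not pass. Fetal levels ran from 1.42 to 1.97 with a median of 1.64, and newborn levels from 1.13 to 1.89 with a median of 1.42. The groups overlapped, with 3 of 7 newborns below every fetus. The change was -0.21 (SE 0.136, adjusted p = 0.274) on the brighter probe and -0.21 (SE 0.143, adjusted p = 0.304) on the probe shifted by a base. It was -0.43 within slide 1 and -0.0064 within slide 2.

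PFKL, the subunit of liver and red cells, was the dimmest probe of the set. It ran from -0.47 to -0.15 in fetuses and from -0.67 to 0.04 in newborns, with medians of -0.26 and -0.18. Its change was 0.034 (95% interval -0.21 to 0.27, adjusted p = 0.846). Of 8 isoform pairs planned, 2 had tested probes for both forms. PFKM minus PFKL within each array shows whether the muscle and liver forms shifted against each other. It ran from 1.62 to 2.23 in fetuses (median 1.95) and from 1.18 to 2.26 in newborns (median 1.85). The group means differed by -0.24, from 1.96 ± 0.24 to 1.72 ± 0.43, and the exact two-sided permutation test over the 13 arrays gave p = 0.238 (0.477 adjusted over the 2 pairs). The smallest p that test can give is 0.000583.

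ALDOA, which cleaves fructose 1,6-bisphosphate and is the aldolase of muscle, had nearly equal means but unequal spread. Fetal levels lay between 7.27 and 7.61 with a median of 7.43. Newborn levels lay between 6.97 and 7.91 with a median of 7.57. Newborns 1, 3 and 6 were below every fetus, newborns 4, 5 and 7 were above every fetus, and newborn 2 lay within the fetal range. The change was 0.019 (SE 0.155, 95% interval -0.31 to 0.35, adjusted p = 0.941), and its sign turned under quantile normalization (-0.11), with slide as a block (-0.036) and under 5 other alternatives, and when some single arrays were left out. The dimmer probe gave 0.094 (adjusted p = 0.682).

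GAPDH, often used as a reference gene, showed no called change on any of its 5 probes. The brighter GAPDH-named probe ran from 0.16 to 0.52 in fetuses and from 0.017 to 0.53 in newborns, with medians of 0.32 and 0.35. Its change was 0.025 (95% interval -0.19 to 0.24, adjusted p = 0.874). The overlapping GAPDH mRNA probe ran from 7.11 to 7.57 in fetuses and from 7.19 to 7.67 in newborns, with a median of 7.34 in each group. Its change was 0.032 (95% interval -0.19 to 0.25, adjusted p = 0.846). The remaining mRNA probes changed by 0.036, over 12 arrays since newborn 2 had no usable spot, and by 0.061. Under quantile normalization the changes of the 3 mRNA probes turned to between -0.088 and -0.072, and none was called.

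On every array the mRNA probe was 115 to 152 times brighter than the GAPDH-named probe of the opposite strand. The gap ran from 6.86 to 7.25 in fetuses and from 6.85 to 7.20 in newborns, so it was nearly the same in both groups. The GAPDH-named probes still lay near the 78th percentile of brightness over all probes (77.6% of probes at or below the brighter one, as a median over arrays). What they bound was not tested.

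**Figure D2:**
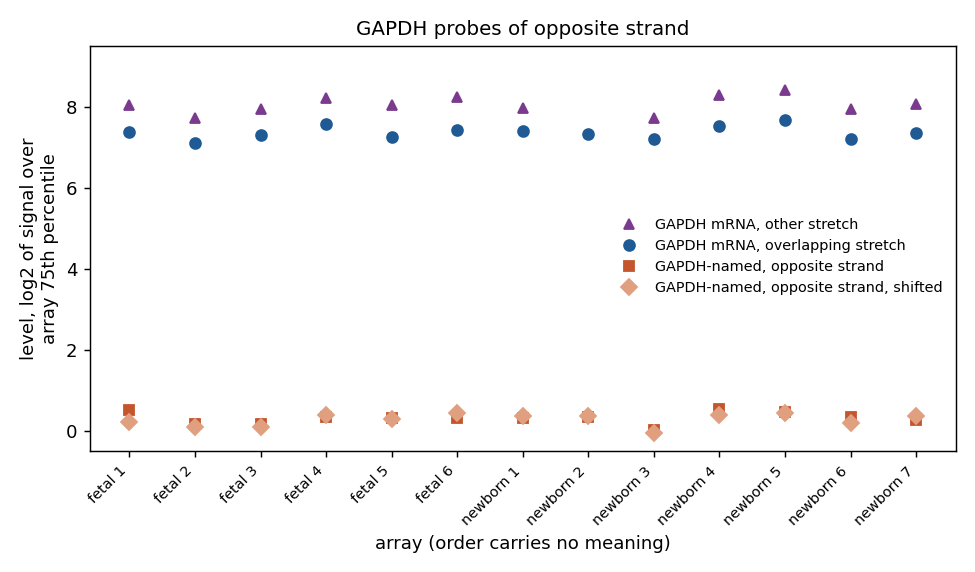
Level of 4 GAPDH probes on each of the 13 arrays, as log2 of the signal over the array's 75th percentile. Both mRNA probes lie above 7 and both GAPDH-named probes of the opposite strand lie below 0.6 on every array that has a value.

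ENO3, the enolase of striated muscle that makes phosphoenolpyruvate, varied more among newborns than among fetuses. Fetal levels lay between 4.81 and 4.92 with a median of 4.85. Newborn levels lay between 4.63 and 5.52 with a median of 5.17. Of the newborns, 5 of 7 were above every fetus and newborns 3 and 6 were below every fetus. On the probe shifted by a base, fetal levels lay between 4.66 and 4.89 and newborn 6, at 4.87, lay within them. The change was 0.23 (SE 0.128, 95% interval -0.043 to 0.50, adjusted p = 0.204), and the shifted probe gave 0.27 (SE 0.117, adjusted p = 0.107). Neither passed, though the latter did without newborn 3, at 0.34 (adjusted p = 0.0307).

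LDHA, the chain that predominates in skeletal muscle and in tissues that make lactate, was higher in most newborns. On the brighter probe, fetal levels ran from 2.67 to 3.13 with a median of 2.88, and newborn levels from 2.72 to 3.86 with a median of 3.52. Of the newborns, 5 of 7 were above every fetus, while newborn 1 at 2.85 and newborn 6 at 2.72 lay within the fetal range. The change was 0.49 (SE 0.186, adjusted p = 0.0722), or 1.40-fold, and did not pass. Leaving out newborn 1 gave 0.57 (adjusted p = 0.0339) and leaving out newborn 6 gave 0.60 (adjusted p = 0.0154), the only alternatives under which that probe passed. The dimmer probe, from a separate stretch of the transcript, changed by 0.51 (SE 0.176, adjusted p = 0.0488) or 1.43-fold and just passed. That call was lost in 20 of 27 alternatives, with slide as a block among them (0.48, adjusted p = 0.0785). Within slide 1 the brighter probe changed by 0.28 and within slide 2 by 0.64.

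**Figure D3:**
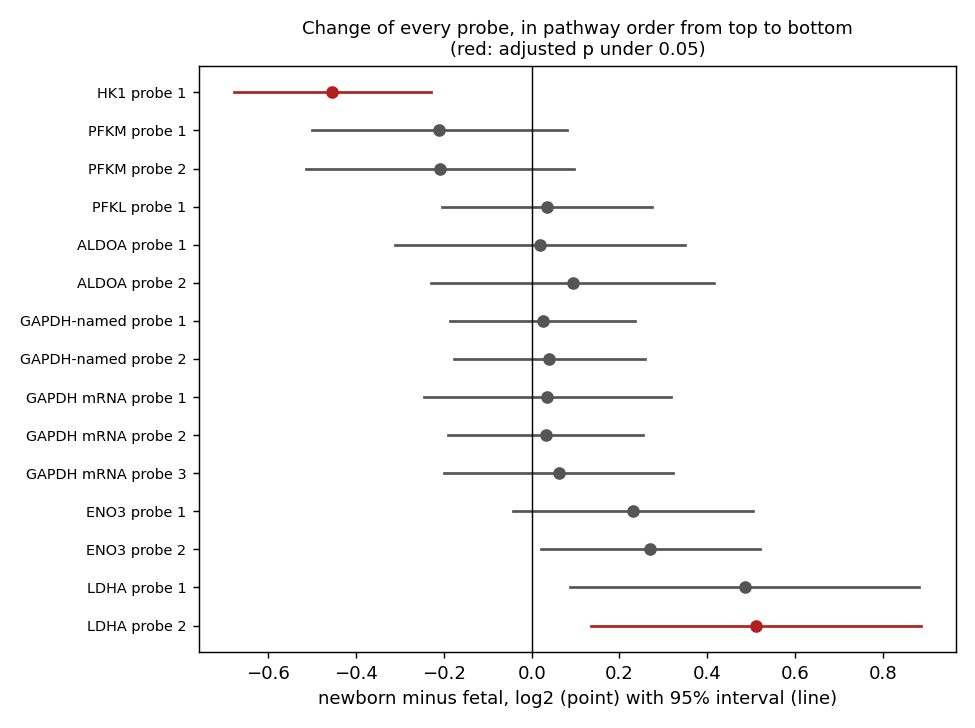
Change of every probe, newborn minus fetal on the log2 scale, with its 95% interval, in pathway order from HK1 at the top to LDHA at the bottom. The HK1 probe at -0.45 and the dimmer LDHA probe at 0.51 (red) had an adjusted p under 0.05, and the intervals of the PFKM, PFKL, ALDOA and GAPDH probes all cross 0.

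Along the pathway, by brightest probe, the largest shifts were at the ends: 0.49 in LDHA at the last step, not called, and -0.45 in HK1 at the first, called. With GAPDH placed by its GAPDH-named probe, brightness had a fixed order apart from HK1 and LDHA. ALDOA was brightest on all 13 arrays, then ENO3, and PFKM, the GAPDH-named probe and PFKL followed in that order after HK1 and LDHA. The GAPDH mRNA probes were left out of that order. They were about as bright as ALDOA or brighter, with 99.2% to 99.5% of probes at or below them. As medians over arrays, 99.2% of probes were at or below ALDOA in brightness, 97.5% at or below ENO3, 86.7% at or below PFKM and 72.7% at or below PFKL. Each probe binds with its own strength, so this is an order of brightness and not of transcripts. The ALDOA probes, for example, differed from each other by 0.92 to 1.16.

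HK1 and LDHA were the only neighbours in that order to change places. HK1 was brighter than LDHA on 6 of 6 fetal arrays, and LDHA was brighter than HK1 on 7 of 7 newborn arrays. The within-array difference LDHA minus HK1 ran from -0.44 to -0.065 in fetuses with a median of -0.23. In newborns it ran from 0.069 to 1.26 with a median of 0.51, so the groups did not overlap. The mean moved from -0.24 ± 0.15 (SD, n = 6) to 0.70 ± 0.49 (SD, n = 7), by 0.94. This pair was picked after its values were seen, and no test was made of it. How many other pairs of genes keep the groups apart was not counted, so the gap is only a description of this pair. On the same arrays and with the same HK1 probe, the groups also stayed apart with the dimmer LDHA probe, where the difference moved by 0.97. They did so too under normexp and quantile normalization, where it moved by 0.88 to 0.93. With the dimmer probe, at -1.17 to -0.73 in fetuses and -0.69 to 0.54 in newborns, the level at which HK1 and LDHA cross was another, so only the shift carries over.

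**Figure D4:**
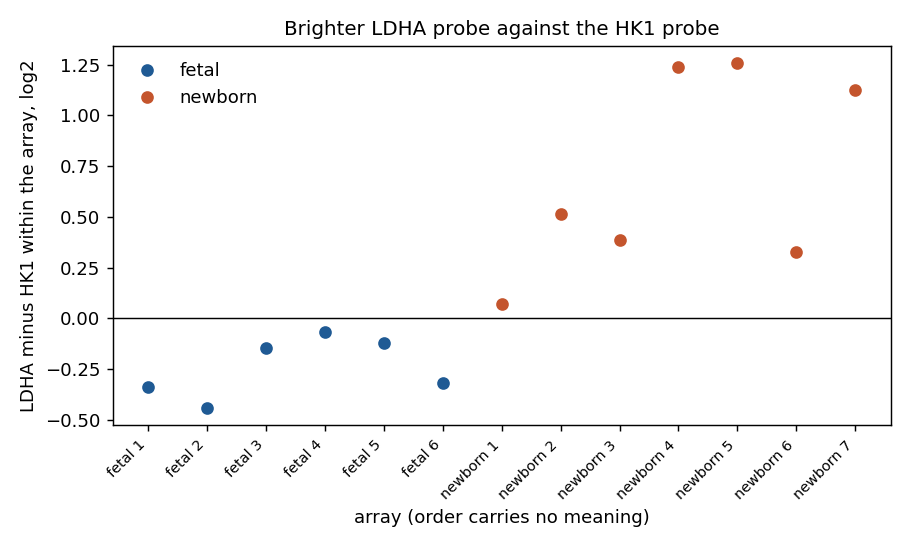
Brighter LDHA probe minus the HK1 probe within each of the 13 arrays, in log2 units, fetal in blue and newborn in orange. The 6 fetal arrays lie between -0.44 and -0.065 and the 7 newborn arrays between 0.069 and 1.26, on either side of 0.

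The spread of ALDOA, ENO3 and LDHA was wider among newborns than among fetuses on every probe. On the brighter probes, the SD in newborns over the SD in fetuses was 6.68 for ENO3, 3.31 for ALDOA and 3.03 for LDHA. On the dimmer probes it was 2.55, 2.58 and 2.35. The ENO3 probes share all but a base, so the size of its ratio rests on the small fetal SD of the brighter one, 0.045 against 0.099. The median of the ratio over all 10255 probes was 1.25, and between 0.263% and 13% of probes exceeded the ratios of these 6 probes. HK1 and PFKL had ratios of 1.66 and 1.83, the PFKM probes 1.42 and 0.849, and the GAPDH mRNA probes ran from 1.1 to 1.67. Without newborn 6 the ratios of the 6 probes were 2.28 to 6.50, against 1.13 over all probes. The ratios were not tested.

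Some newborns were high in all of those enzymes. Newborns 4, 5 and 7 were above every fetus on both probes of ALDOA, ENO3 and LDHA. These newborns are females on slide 2, and newborns 4 and 5 carry the same animal number. In them sex and slide cannot be told apart, and the part of either was not tested. Newborn 6 was below the fetal median on the brighter probe of each, but on the dimmer probes of ENO3 (4.87 against 4.80) and LDHA (2.27 against 2.21) it was above it. After group means were removed, ALDOA and ENO3 correlated at r = 0.85 and ALDOA and LDHA at 0.90 over the 13 arrays, and ENO3 and LDHA at 0.68. These are descriptions over arrays that share a scaling. Under quantile normalization ALDOA with ENO3 held at 0.84, while ALDOA with LDHA dropped to 0.45 and ENO3 with LDHA to 0.40. In the newborns alone ALDOA with LDHA had r = 0.97, and in the 6 fetuses 0.042. Of all pairs of 548 named genes, 0.396% had r above 0.8. HK1 had r between -0.15 and 0.13 with every enzyme of the set except PFKM, where it was -0.60. Under quantile normalization those values changed to 0.43 with ALDOA, 0.39 with ENO3 and -0.39 with PFKM. In the 6 fetuses alone HK1 had r = -0.80 with ALDOA, -0.86 with ENO3 and 0.83 with the GAPDH-named probe, and in the newborns 0.029, 0.12 and -0.26.

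**Figure D5:**
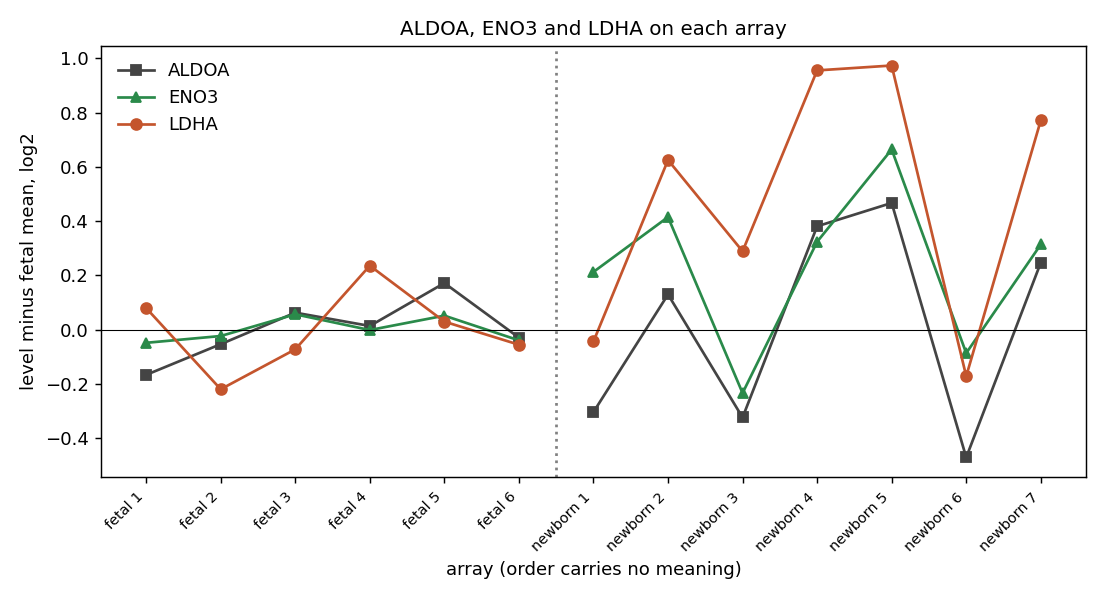
Level of the brighter ALDOA, ENO3 and LDHA probes on each array minus the fetal mean of that probe, in log2 units; lines only join points of a probe within a group. Newborns 4, 5 and 7, females on slide 2, are high for all of them, and the 6 fetal arrays lie nearer to 0 than those newborns. Newborn 6 is below 0 for all of them, most so for ALDOA, and lies within the fetal range for LDHA.

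Probes of a gene moved together from array to array. After group means were removed, r over the 13 arrays was 0.97 for the ALDOA probes, 0.95 for ENO3, 0.94 for the separate LDHA stretches, 0.70 for PFKM and 0.69 for the GAPDH-named probes. Among 541 other named genes, those most like LDHA were CHID1, a chitinase-like protein (r = 0.88), and the proteasome subunit PSMA6 (r = 0.83). ENO3 was most like PYGM, the muscle glycogen phosphorylase (r = 0.86), and IRF1 (r = 0.83), and HK1 most like UBQLN1 (r = 0.92). These likenesses are the highest of 541 and carry no test.

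No enzyme was called for an age change that differs between the sexes. LDHA changed by 0.80 in females and 0.18 in males, ALDOA by 0.24 and -0.24, and ENO3 by 0.41 and 0.017. The interaction for LDHA was -0.62 (95% interval -1.42 to 0.18) with an adjusted p of 0.982, and the adjusted p of the 7 enzymes was 0.982 or more. With 2 female fetuses these intervals are wide. In limma the interaction called 0 probes (0%), while 507 had an unadjusted p below 0.05. HK1 changed by -0.50 in females and -0.40 in males.

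Around the pathway, genes were listed for transport, reverse steps, branches and control. Glucose carriers were lower in newborns: of 4 tested transport genes 3 fell and none rose. Among all named genes 9.06% fell and 15.5% rose. SLC2A1, the carrier typical of fetal heart, changed by -1.28 (adjusted p = 0.000546) and was well above background on 4 of 7 newborn arrays, the insulin-responsive SLC2A4 by -0.68 (adjusted p = 0.00302) and SLC2A3 by -0.48 (adjusted p = 0.0117). The lactate carrier SLC16A1 changed by -0.072 on its brightest probe (adjusted p = 0.671) but by -0.42 on a dim one (adjusted p = 0.0214).

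At the reverse of the phosphofructokinase step, 1 of 7 listed genes was tested. The muscle fructose bisphosphatase FBP2, named by description, was well above background on 7 of 7 newborn arrays and on 0 of 6 fetal ones. It was at least 7.38-fold higher in newborns. For that bound the fetal mean was set at the lowest signal well above background on each array or the probe's own, whichever was higher. FBP2 passed the filter on dim probes only through the newborn arrays, so no p is given for it. No gene of pyruvate entry into mitochondria could be tested.

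Of 5 branch genes none was called. PYGM changed by 0.37 (adjusted p = 0.0764) and PYGL, the liver glycogen phosphorylase, by -0.31 (adjusted p = 0.137). Neither shuttle gene was called, with GPD2 at -0.45 (adjusted p = 0.227) and SLC25A11 at 0.013 (adjusted p = 0.924). Of 7 genes of hypoxia and control, VEGFA fell by 0.67 on the log2 scale (adjusted p = 0.0110). HIF1A, a regulator of glycolytic genes, was at 0.16 (adjusted p = 0.456) and ARNT at -0.45 (adjusted p = 0.0920). PPARGC1A changed by -0.41 on its brightest probe (adjusted p = 0.0942) and was called only on its dimmest, at -0.40 (adjusted p = 0.0378).

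Of 15 listed heart muscle markers, 2 were tested: myoglobin (MB), at a fetal mean of 8.97, and slow myosin (MYH7), at 4.61. Both were bright on every array, but slow skeletal muscle makes both too, so they do not check the tissue label. MYH7 fell by 1.14 on the log2 scale (adjusted p = 0.000774). For the marker counts here, 9.06% of all named genes fell and 15.5% rose by brightest probe. The erythroid markers HBB, HBBF and AHSP all fell (3 of 3), with a summed signal of 55.6 to 268 times the array's 75th percentile in fetuses and 25.7 to 69.3 times in newborns. AHSP was dim, well above background on 5 of 6 fetal and 2 of 7 newborn arrays. Red cells carry HK1 and PFKL too, and after group means were removed HBB had r = -0.31 with HK1 and 0.19 with PFKL over 13 arrays. With HBBF the values were -0.30 and 0.14. Endothelial markers fell in 3 of 4, with sums of 5.89 to 7.41 in fetuses and 4.02 to 6.61 in newborns. T cell markers fell in 2 of 2, with sums of 0.207 to 0.591 and 0.0422 to 0.157. Of these, CD3D was well above background on 5 of 6 fetal and 2 of 7 newborn arrays, and CD3E on 6 and 5. Of 3 tested macrophage markers CD14 and FCER1G rose, with sums over the 3 of 0.715 to 1.05 and 1.04 to 2.18. FCGR1A was well above background on 2 of 6 fetal and 7 of 7 newborn arrays. It passed the filter on dim probes only through the newborn arrays, so it is not counted. Smooth muscle CNN1, the only tested marker of its list, rose, at 3.63 to 7.17 in fetuses and 9.81 to 84.0 in newborns. Of 3 tested fibroblast markers 1 fell, and neither of 2 tested adipocyte markers was called. The part of these cells in the changes of the enzymes was not tested. Of 2 tested skeletal muscle markers, TNNC2 was not called. MYOD1, a dim gene, just passed on its brighter probe at 0.43 (adjusted p = 0.0477). Its dimmer probe, at 0.62, did not (adjusted p = 0.111). The troponin TNNC2 was above 3.6 on 7 arrays and below 0 on 6. Among newborns it was high in 1, 2, 4 and 5 and low in 3, 6 and 7. After group means were removed it had r = 0.43 with LDHA, 0.53 with ENO3, 0.33 with ALDOA, 0.53 with HK1, 0.71 with the GAPDH-named probe, -0.17 with PFKM and -0.35 with PFKL, over 13 arrays that share a scaling. Its part in these levels was not tested.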

How the data were processed

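Spot intensity values come from the deposited scanner files of Agilent Feature Extraction 10.1.1.1. Their processed signal had background subtracted and was not normalized between arrays, per the file headers. The authors' deposited series matrix holds log2 values, judged from the values, with medians of 8.69 to 8.70 per array; its normalization is not stated in the sources used here. It served as an alternative.

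The log2 processed signal minus each array's 75th percentile over non-control spots was used. Outlier spots were dropped and spots of a probe averaged. Probes well above background on at least 6 arrays entered a limma fit (version 3.58.1, R 4.3.3; lmFit, eBayes), two-sided. Only the limma fit was tried on simulated arrays, with independent errors and without slide effects or shared animal numbers. The 75th percentile was 219 to 367, or 8.77 to 13.6 times the median background, and the number of arrays limits the precision.

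The slides held 4 fetal and 3 newborn arrays (slide 1) and 2 fetal and 4 newborn arrays (slide 2). Named genes are all probes of the enzymes and, from the lists, genes that passed and the 2 with the smallest p of each list. The members and lists were chosen with earlier results of these data known. Some results are not reported here. TC numbers and old names were matched to genes by hand from descriptions.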

Additional observations from a re-analysis of the deposited data

How the results depend on the processing

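HK1 stayed negative in all 28 alternatives and was called in 25. It lost its call with normexp on the spot background (-0.42), in slide 1 (-0.29) and in slide 2 (-0.56). The brighter PFKM and ENO3 probes kept their direction in all 28 and were not called in any. The dimmer PFKM probe turned to 0.10 in slide 2, and the dimmer ENO3 probe ranged from 0.21 to 0.34 with each array left out. PFKL turned to -0.043 in slide 1, and ranged from -0.016 to 0.10 with each array left out. ALDOA turned under quantile normalization (-0.11), the series matrix (-0.10), slide as a block (-0.036), slide 1 alone (-0.13), animal number as a random block (-0.019) and sex as a term (-0.031), and ranged from -0.056 to 0.10 with each array left out. The GAPDH-named probe turned with slide as a block (-0.0014) and in slide 1 (-0.069), with a range of -0.0087 to 0.076 with each array left out. The dimmer ALDOA probe turned with the series matrix (-0.00020) and in slide 1 (-0.067). LDHA ranged from 0.40 to 0.60 with each array left out. The dimmer LDHA probe lost its call with normexp on the spot background (0.52), median scaling (0.50), quantile normalization (0.47), no filter (0.51), slide as a block (0.48), slide 1 (0.30), slide 2 (0.72), animal number (0.48) and sex (0.52), and ranged from 0.44 to 0.62 with each array left out.

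Probes called for age numbered 2366, against 48 with normexp on the spot background, 356 in slide 1, 23 in slide 2, and 1727 to 3116 with each array left out. The share of higher calls stayed within 10 points of 51.9% under every scaling. The interaction gave 0 to 2 calls with each array left out. The causes of these differences were not tested, and a slide alone holds fewer arrays.

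Fetal and newborn replicates share only a number: deviations of same-numbered arrays correlated at -0.070 to 0.053. With the number as a replicate block, 1326 probes were called, HK1 was at -0.43 (adjusted p = 0.0471), PFKL at -0.016, ALDOA at -0.020 and the dimmer LDHA probe at 0.48 (adjusted p = 0.115).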

Other observations

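Newborns 2, 4 and 5 carry the same animal number under different letters, and their LDHA levels were 3.52, 3.85 and 3.86 on the brighter probe. Newborns 1 and 7 share another number, and their LDHA levels were 2.85 and 3.66. Newborn 7 thus lay within the span of newborns 2, 4 and 5 though its number is another. Fetal 3 and 5 share a number and had 2.82 and 2.92, and fetal 1 and 6 share another and had 2.97 and 2.84. In HK1, newborns 2, 4 and 5 had 3.0, 2.61 and 2.61. With the animal number as a random block HK1 was still called.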
